A study of Mus musculus with 18 samples.

Results

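The metallothionein genes Mt1 and Mt2 and a small set of genes that sense and move zinc were examined in mouse spleen by RNA sequencing. The set held 6 genes, picked by symbol from the 19326 gene entries of the expression table: Mt1, Mt2, the zinc-sensing transcription factor gene Mtf1, the zinc exporter gene Slc30a1 and the zinc importer genes Slc39a1 and Slc39a10. All 6 genes were present and all 6 were among the 12969 genes tested, which reached at least 1 FPKM in at least 3 libraries. FPKM is a count of sequenced fragments divided by the length of the transcript and by the number of fragments mapped in that library. The genes were picked with earlier results of these data known, since Mt1 was already recorded as high in spleens given AOS-FMT. Their changes in comparisons with that group are therefore given as a description, with no p-value, and nothing is read from whether they pass a threshold there.

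The 18 libraries came from spleens of ICR mice, an outbred laboratory stock, aged 10 weeks, in 6 groups of 3. The HS_AOSFMT mice had a high fat diet, streptozotocin (STZ, a toxin of insulin-producing cells) and a faecal microbiota transplant (FMT) labelled AOS10mg/kg-FMT. The HS_conFMT mice had the same diet and STZ with control-FMT, and the HS_AOS mice had them with AOS at 10 mg/kg. The HS mice had the diet and STZ alone, the AOS mice had AOS at 10 mg/kg without diet or STZ, and the control mice are labelled control. The labels do not spell out AOS, the sex of the mice or the FMT schedule. They do not say that the 3 libraries of a group are separate animals, so p-values here measure the spread between libraries. The title of the series asks whether the AOS FMT rescues the spleen from diet and STZ.

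Metallothioneins are small cysteine-rich proteins that bind zinc and copper, and they buffer free zinc in the cell. When zinc rises, the protein of Mtf1 binds metal response elements, short DNA motifs in the promoters of metallothionein genes and of Slc30a1, and turns those genes on; in mouse, glucocorticoids also induce Mt1 and Mt2. Transporters of the SLC30 (ZnT) family carry zinc out of the cytosol, and those of the SLC39 (ZIP) family carry it in.

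Mt1 and Mt2 are neighbours on chromosome 8 (mm10, GENCODE M21). Mt2 spans 94172664 to 94173568 and Mt1 spans 94179082 to 94180327, both on the plus strand, with 5513 bases between them. Their transcripts, of 549 bases for Mt1 and 511 bases for Mt2 in 3 exons each, were identical at 329 of 485 aligned bases (67.8%), and the longest run they share was 20 bases. The rule that assigned reads to genes is not given in the sources used here, so reads from short shared stretches could have been split between them.

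The RefSeq promoters of both metallothionein genes and of Slc30a1 are shown because these 3 are the genes of the set known to be induced by Mtf1 (GRCm38.p6, the 250 bases before the RefSeq start, plus strand, 5′ to 3′). Capitals mark matches to the core letters of the metal response element, TGCACNC or TGCGCNC, on either strand, so a match on the minus strand is read here as its reverse complement. The Mt1 window is chr8:94178839-94179088, the Mt2 window is chr8:94172368-94172617 and the Slc30a1 window is chr1:191906531-191906780.
Mt1: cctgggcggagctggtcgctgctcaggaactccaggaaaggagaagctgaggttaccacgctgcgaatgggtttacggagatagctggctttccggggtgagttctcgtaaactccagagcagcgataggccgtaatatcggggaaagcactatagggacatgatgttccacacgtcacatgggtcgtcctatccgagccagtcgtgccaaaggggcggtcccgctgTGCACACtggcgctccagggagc
Mt2: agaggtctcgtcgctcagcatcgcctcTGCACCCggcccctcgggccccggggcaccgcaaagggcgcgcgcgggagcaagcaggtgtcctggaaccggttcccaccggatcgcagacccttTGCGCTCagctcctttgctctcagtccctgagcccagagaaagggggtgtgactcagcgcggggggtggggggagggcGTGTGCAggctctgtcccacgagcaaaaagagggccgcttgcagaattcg
Slc30a1: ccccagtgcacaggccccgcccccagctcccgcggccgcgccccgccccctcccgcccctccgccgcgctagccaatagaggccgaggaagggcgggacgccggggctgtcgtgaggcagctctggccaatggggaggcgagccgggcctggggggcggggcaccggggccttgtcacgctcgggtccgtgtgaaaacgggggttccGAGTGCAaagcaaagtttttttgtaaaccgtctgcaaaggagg
The stretch just after the RefSeq start used here held further matches in both metallothionein genes. GENCODE M21 also lists later starts, at 94179211 and 94179241 for Mt1 and at 94172860 for Mt2. Both stretches shown next lie before these later starts. The bases directly before the later starts were not searched.
Mt1 after the start: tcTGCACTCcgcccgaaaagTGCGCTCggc
Mt2 after the start: ggtcGTGCGCAggcc

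In the window that runs from 250 bases before that RefSeq start into the first bases after it, Mt2 held 4 matches, Mt1 held 3 and Slc30a1 held 2. The windows of Mtf1, Slc39a1 and Slc39a10 held 0. Of the 32851 such windows in the RefSeq table, 25.7% held at least 1 match, 1.97% at least 3 and 0.517% at least 4. A match to these letters is a description of the sequence, not a bound site.

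Transcripts of Mt1 and Mt2 were abundant in spleen, and transcripts of Mtf1 and most transporters were not. Over all 18 libraries, 4.39% of the tested genes had a higher mean FPKM than Mt1 and 6.64% a higher one than Mt2, against 71.9% for Mtf1, 66.2% for Slc30a1, 22.6% for Slc39a1 and 65.8% for Slc39a10. The metallothioneins also varied most. The highest library stood 3.29 times above the lowest for Mt1 and 4.40 times for Mt2, whereas the same ratio was between 1.24 for Mtf1 and 1.66 for Slc39a10 in the other 4 genes.

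Several libraries stood apart from their groups before any gene of the set was considered. Haemoglobin transcripts took 12.9% to 35.5% of the summed FPKM of a library, and the share was 12.9% to 17.6% in HS_AOSFMT against 26.8% to 29.1% in HS. Pancreatic acinar transcripts, 8 of 8 listed genes, summed to 2.94 to 37.0 FPKM in HS_AOSFMT and to 1988 to 17515 FPKM in HS. Neutrophil transcripts (6 of 6 listed genes) summed to 14214 FPKM in control 1, against 750 to 3864 FPKM in the other control libraries. On the first principal component HS 1, HS_AOS 1 and control 1 lay lowest, and fits without these 3 are given where they change a result. The spleen's own markers were present in all groups: the 5 B cell genes summed to 1330 to 2535 FPKM and the 5 T cell genes to 158 to 382 FPKM. In whole spleen, fewer cells of a type and less RNA per cell cannot be told apart.

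Mt1, the more abundant metallothionein transcript, reached 218, 258 and 207 FPKM in HS_AOSFMT. It stood at 100.1, 85.15 and 119.5 FPKM in HS_conFMT and at 132, 95.4 and 79.0 FPKM in HS_AOS. HS had 116, 89.4 and 81.5 FPKM, AOS had 104, 98.7 and 85.3 FPKM, and control had 145, 111 and 78.3 FPKM. All 3 HS_AOSFMT libraries thus lay above all 15 others, whose highest was control 1. Among all tested genes, 30.8% had their 3 HS_AOSFMT libraries above the 3 HS libraries, 21.5% above the 3 HS_conFMT libraries and 23.3% above the 3 control libraries. By group mean, HS_AOSFMT (228 ± 26.7 FPKM, SD, n = 3) was followed by control (112 ± 33.6), HS_AOS (102 ± 27.3), HS_conFMT (102 ± 17.2), AOS (96.2 ± 9.83) and HS (95.7 ± 18.3), and these 5 groups overlapped one another.

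Mt2, which encodes a second metallothionein of the same zinc-binding kind, reached 156, 205 and 136 FPKM in HS_AOSFMT. It stood at 61.7, 46.6 and 72.3 FPKM in HS_conFMT and at 91.8, 72.8 and 68.9 FPKM in HS_AOS. HS had 104, 70.1 and 78.7 FPKM, AOS had 73.75, 72.8 and 58.45 FPKM, and control had 104, 80.55 and 57.4 FPKM. Again the 3 HS_AOSFMT libraries lay above all 15 others. The share of all genes that did so was not counted, and the shares given with Mt1 are for 3 libraries against 3. By group mean, HS_AOSFMT (166 ± 35.3 FPKM, SD, n = 3) was followed by HS (84.2 ± 17.5), control (80.6 ± 23.2), HS_AOS (77.8 ± 12.2), AOS (68.3 ± 8.57) and HS_conFMT (60.2 ± 12.9). Every neighbouring pair among these 5 overlapped.

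**Figure D1:**
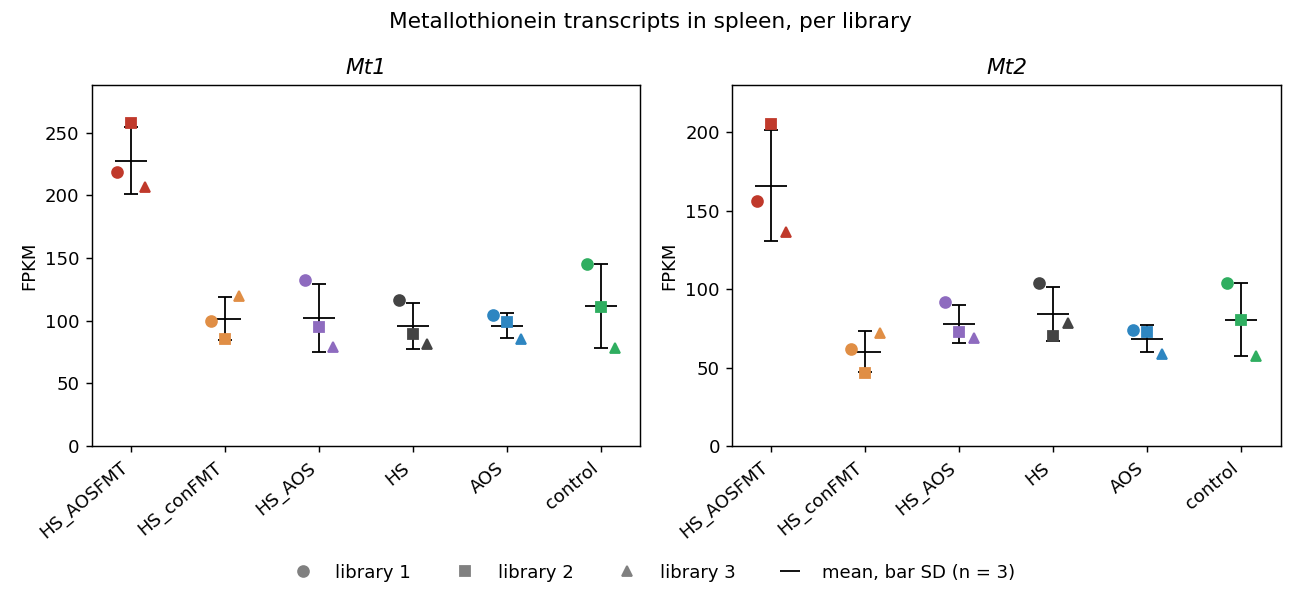
FPKM of Mt1 (left) and Mt2 (right) on the vertical axes for each of the 18 libraries, by group, with lines for the group mean and bars for the SD (n = 3). The HS_AOSFMT libraries, at 207 to 258 FPKM for Mt1 and 136 to 205 FPKM for Mt2, sit above every other library, and the other 5 groups overlap.

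Both metallothioneins were higher in HS_AOSFMT against each of 3 groups. Each change below is a difference of group means of log2(FPKM + 1) estimated by limma, with its standard error (SE). Mt1 was higher in HS_AOSFMT by 1.25 (SE 0.22) against HS, by 1.16 (SE 0.22) against HS_conFMT and by 1.06 (SE 0.22) against control, which are ratios of mean FPKM of 2.38, 2.24 and 2.04. Mt2 was higher by 0.97, 1.45 and 1.05 (SE 0.22 each) against the same 3 groups, with ratios of mean FPKM of 1.97, 2.76 and 2.06. The 3 comparisons share the HS_AOSFMT libraries. Among all tested genes ordered by the rise against HS, Mt1 was 31st and Mt2 73rd, and against HS_conFMT Mt2 was 11th and Mt1 26th.

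A gene is called here when its limma p, adjusted by Benjamini-Hochberg over all 12969 tested genes, is under 0.05. In HS_AOSFMT against HS, 2 of the 6 genes were called higher, Mt1 and Mt2, where 8.08% of all genes were called higher. In HS_AOSFMT against HS_conFMT the same 2 of 6 were called higher, beside 4.81% of all genes, and in HS_AOSFMT against control the same 2 of 6, beside 9.68%. None of the 6 was called lower in these comparisons. The choice of the genes used these comparisons, so nothing is read from the counts. The call for Mt2 against HS was lost when HS 2 (change 0.85), HS 3 (0.93), HS_AOSFMT 1 (1.00) or HS_AOSFMT 2 (0.81) was left out. It was also lost with the libraries rescaled to their total without haemoglobin and acinar genes (0.85). As deposited, the median of all tested genes stood at 0.10 in HS_AOSFMT against HS, and that rescaling brought it to -0.0032; Mt1 was then higher by 1.13. Against control, the calls of Mt1 and Mt2 were lost when these groups were fitted without the other 4. Without control 3 the called genes were 4 of 6, with Slc39a1 and Slc39a10 added. In that fit the number called over all tested genes went from 1558 to 3376.

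Haemoglobin and acinar content also varied between libraries of the other groups. HS_conFMT 2, with 14.7% haemoglobin, had 85.15 FPKM of Mt1 and 46.6 FPKM of Mt2, the lowest Mt2 of all libraries. Control 3, with acinar transcripts at 8.16 FPKM in sum, had 78.3 FPKM of Mt1, the lowest of all libraries. T cell markers moved with the group, at 315 to 382 FPKM in sum in HS_AOSFMT against 207 to 256 FPKM in HS. Of these, 3 of 5 genes were called higher, beside 8.08% of all genes. Called lower against HS were 8 of 8 acinar, 1 of 4 plasma cell and 1 of 6 erythroid genes, beside 1.15% of all genes. Neutrophil transcripts summed to 1375 to 1907 FPKM in HS_AOSFMT. The sums were 739 to 1200 FPKM in HS_conFMT, 531 to 808 FPKM in HS_AOS and 519 to 1340 FPKM in AOS. In HS they were 798 to 2124 FPKM and in control 750 to 14214 FPKM, ranges that include that of HS_AOSFMT. Control 1, with the highest neutrophil sum, had 145 FPKM of Mt1, the highest outside HS_AOSFMT. The part of haemoglobin, acinar, neutrophil and T cell content in the metallothionein levels was not tested. Transcripts of liver, a metallothionein-rich tissue (3 of 3 listed genes), summed to 5.71 to 171 FPKM in HS_AOSFMT and to 7.04 to 28.7 FPKM in HS, with 0 of 3 called.

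**Figure D2:**
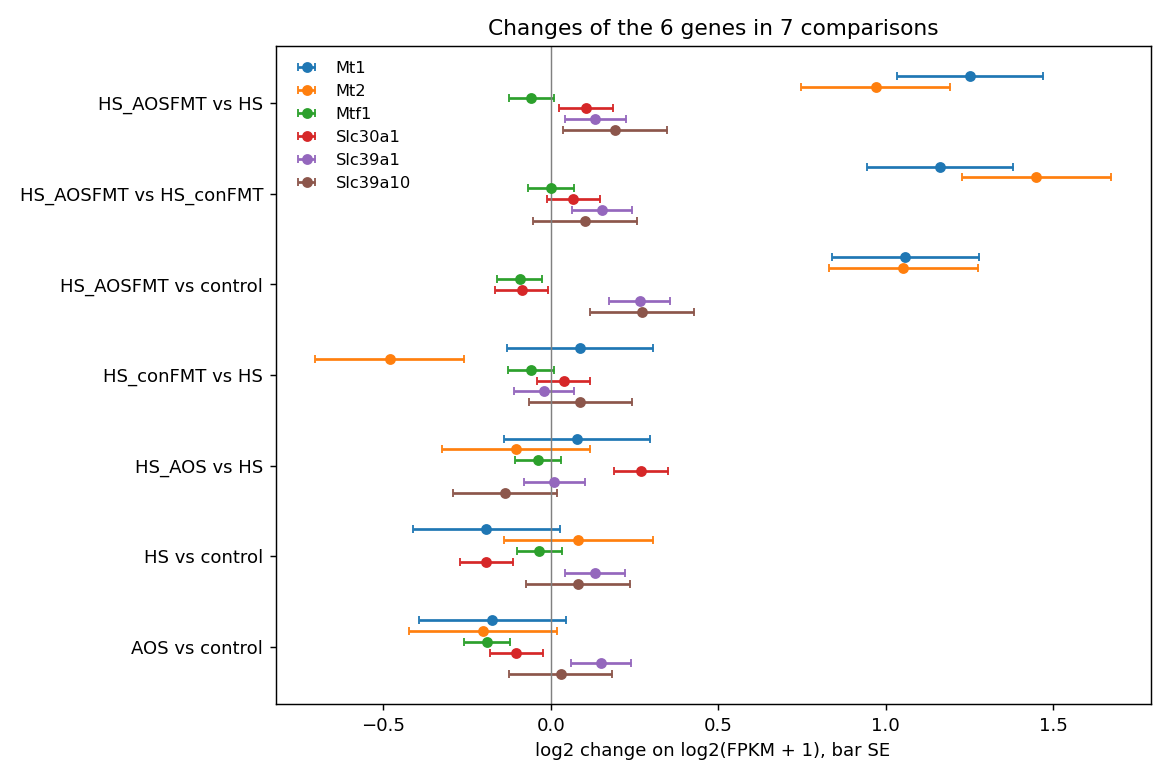
Log2 change on log2(FPKM + 1) on the horizontal axis for each of the 6 genes in 7 comparisons, with bars for the SE. Mt1 and Mt2 lie between 0.97 and 1.45 in the 3 comparisons with HS_AOSFMT, and the other 4 genes lie between -0.092 and 0.27 there.

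The balance between the metallothionein transcripts also varied between groups. The ratio of Mt1 to Mt2 in FPKM was 1.39 ± 0.13 in HS_AOSFMT, 1.70 ± 0.11 in HS_conFMT, 1.30 ± 0.15 in HS_AOS, 1.14 ± 0.12 in HS, 1.41 ± 0.052 in AOS and 1.38 ± 0.018 in control (SD, n = 3 each). The HS_conFMT libraries, at 1.62 to 1.83, had the highest ratios of all 18, and the HS libraries, at 1.04 to 1.27, overlapped only HS_AOS and HS_AOSFMT. These ratios were looked at after the values were seen and were not tested.

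Neither metallothionein differed past the threshold in the comparisons without HS_AOSFMT. In HS_conFMT against HS, Mt1 changed by 0.088 (SE 0.22, limma adjusted p = 0.935) and Mt2 by -0.48 (SE 0.22, limma adjusted p = 0.774), and 0 of the 6 genes were called, beside 0.00771% of all genes (1 of 12969, with 819 at an unadjusted p under 0.05). With AOS under diet and STZ (HS_AOS against HS) the changes were 0.078 for Mt1 and -0.10 for Mt2 (limma adjusted p = 0.999 for each), and 0 of 6 genes were called, beside 0% of all genes. In HS against control they were -0.19 for Mt1 (limma adjusted p = 0.951) and 0.083 for Mt2 (limma adjusted p = 0.979), with 0 of 6 called beside 0.0154% (830 genes at an unadjusted p under 0.05). In AOS against control they were -0.17 for Mt1 (limma adjusted p = 0.782) and -0.20 for Mt2 (limma adjusted p = 0.745), with 0 of 6 called beside 0.00771% (1471 at an unadjusted p under 0.05). The SE of each change was 0.22. Differences well above that size could also go uncalled here, as the -0.48 of Mt2 in HS_conFMT against HS did.

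Mtf1, the gene of the zinc-sensing factor itself, was nearly level across the groups. It had 5.12, 5.24 and 5.23 FPKM in HS_AOSFMT, against 5.04, 5.33 and 5.21 FPKM in HS_conFMT and 5.47, 5.13 and 5.77 FPKM in HS. These groups overlapped, and the change was -0.058 (SE 0.068) against HS and 0.00099 (SE 0.068) against HS_conFMT. HS_AOS had 5.0, 5.36 and 5.5 FPKM, and control had 5.48, 5.62 and 5.72 FPKM, above all 3 HS_AOSFMT libraries, as for 8.30% of all genes. The lowest group was AOS, at 4.67, 4.96 and 4.74 FPKM, all below control. That difference of -0.19 (SE 0.068, limma adjusted p = 0.333) was not called, and 4.79% of all genes had their 3 AOS libraries below the 3 control libraries.

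Slc30a1 encodes the exporter ZnT1 of the cell surface, which carries zinc out of the cell. It had 7.38, 6.44 and 6.49 FPKM in HS_AOSFMT, 6.25, 6.60 and 6.37 FPKM in HS_conFMT and 6.62, 5.70 and 6.34 FPKM in HS. These groups overlapped, with a change of 0.11 (SE 0.080) in HS_AOSFMT against HS and of 0.067 (SE 0.080) against HS_conFMT. The highest group was HS_AOS, at 7.12, 7.58 and 8.43 FPKM, all above HS. That difference of 0.27 (SE 0.080) had an unadjusted limma p of 0.00392 and an adjusted p of 0.714, in a comparison where 0 of 12969 genes were called (674 at an unadjusted p under 0.05) and 8.22% of genes had all 3 HS_AOS libraries above HS.

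Without diet and STZ, Slc30a1 lay the other way round. AOS had 6.36, 6.88 and 6.79 FPKM, all below control at 6.92, 7.44 and 7.36 FPKM, a change of -0.10 (SE 0.080, limma adjusted p = 0.627). HS also lay below control in all 3 libraries, by -0.19 (SE 0.080, limma adjusted p = 0.744), where 4.65% of genes did so. The effect of AOS under diet and STZ exceeded that of AOS alone by 0.37 (SE 0.11), with a limma adjusted p of 0.547, so this interaction did not pass the threshold, and 0 of 6 genes were called for it beside 0.00771% of all genes. The mean was highest in HS_AOS, at 7.71 ± 0.66 FPKM, and lowest in HS, at 6.22 ± 0.47 FPKM (SD, n = 3 each).

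Slc39a1 encodes ZIP1, a broadly expressed zinc importer, and was the most abundant transporter transcript of the set. It had 35.4, 32.4 and 34.8 FPKM in HS_AOSFMT, 29.2, 35.0 and 28.2 FPKM in HS_conFMT and 30.8, 33.8 and 29.5 FPKM in HS_AOS. HS had 30.5, 33.9 and 29.0 FPKM, AOS had 30.7, 31.7 and 32.1 FPKM, and control had 25.6, 28.8 and 30.7 FPKM. The HS_AOSFMT libraries all lay above AOS, where the share of all genes that did so was not counted, and above control. Against control the change was 0.27 (SE 0.091), and 23.3% of all genes had no overlap in that direction. The gene was not called, but was without control 3 (change 0.32), a fit that called 3376 genes against 1558 with control 3 kept. Against HS the change was 0.13 (SE 0.091) and against HS_conFMT 0.15 (SE 0.091), with overlap in each.

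Slc39a10 encodes ZIP10, an importer known in mouse for its role in B cell survival. It had 8.53, 6.99 and 8.37 FPKM in HS_AOSFMT, 7.31, 8.14 and 6.58 FPKM in HS_conFMT and 5.20, 6.58 and 6.66 FPKM in HS_AOS. HS had 5.43, 7.47 and 7.79 FPKM, AOS had 6.42, 6.53 and 6.69 FPKM, and control had 5.42, 5.52 and 8.65 FPKM. The spread within groups was wide, with an SD of 1.84 FPKM in control and 1.28 FPKM in HS. The HS_AOSFMT libraries all lay above HS_AOS and AOS. The share of all genes that did so was not counted. It was 30.8% against HS, 21.5% against HS_conFMT and 23.3% against control. For Slc39a10 the HS_AOSFMT libraries overlapped HS, HS_conFMT and control, with changes of 0.19, 0.10 and 0.27 (SE 0.15 each). Against control the gene was not called, but was without control 3 (change 0.47), the library with the highest value of all 18. That fit called 3376 genes, against 1558 with control 3 kept.

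**Figure D3:**
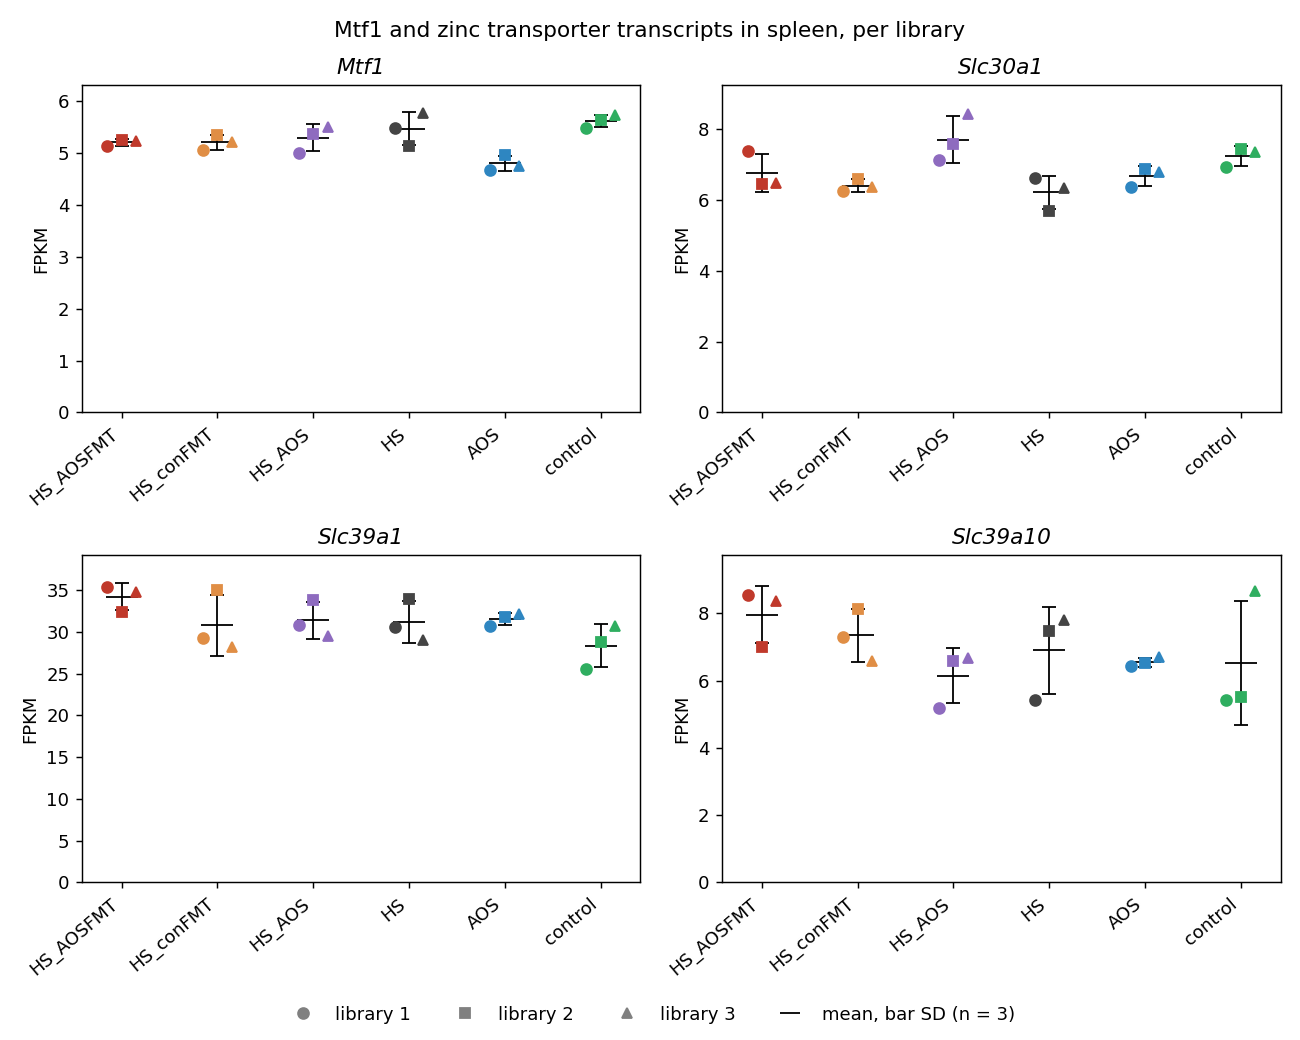
FPKM of Mtf1, Slc30a1, Slc39a1 and Slc39a10 on the vertical axes for each of the 18 libraries, by group, with lines for the group mean and bars for the SD (n = 3). The HS_AOS libraries of Slc30a1, at 7.12 to 8.43 FPKM, sit above the HS libraries at 5.70 to 6.62 FPKM. The HS_AOSFMT libraries of Slc39a10 overlap HS_conFMT, HS and control.

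Across libraries, the metallothioneins moved together and Slc39a10 moved against them. Over all 18 libraries Mt2 had the highest Pearson r with Mt1 of 12968 genes, at 0.929, and that value includes the high HS_AOSFMT libraries. Leaving HS_AOSFMT out, so that no high group sets the value, Mt1 and Mt2 had a Pearson r of 0.738 over 15 libraries (permutation p = 0.00165, adjusted over 15 gene pairs 0.00825) and a Spearman rho of 0.721 (permutation p = 0.00296, adjusted 0.0148). Without control 1 and HS_AOS 1, the libraries farthest from the median of Mt1, r was 0.581. Without HS 1, HS_AOS 1 and control 1, a choice made after seeing the data, r was 0.447 over 12 libraries (permutation p = 0.146), so the relation outside HS_AOSFMT rests in part on those libraries.

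Slc39a10 and Mt1 had a Pearson r of -0.824 over the 15 libraries (permutation p = 9e-05, adjusted 0.00135) and a Spearman rho of -0.854 (permutation p = 6e-05, adjusted 0.0009). Without control 1 and HS_AOS 1, r was -0.739, and over the 12 libraries it was -0.672 (permutation p = 0.0167). Slc39a10 and Mt2 had a Pearson r of -0.812 (permutation p = 0.00034, adjusted 0.00255) and a Spearman rho of -0.831 (permutation p = 0.00021, adjusted 0.00158), with r at -0.752 without HS_conFMT 2 and control 1 and at -0.629 over the 12 libraries (permutation p = 0.0285). None of the other 12 pairs had an adjusted permutation p under 0.05.

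These permutations treat the 15 libraries as exchangeable, but the library numbers shared an order. The library numbered 1 had the highest Mt1 of its group in 4 of 5 groups, and also the highest Mt2 in 4 of 5 and the lowest Slc39a10 in 4 of 5; the labels do not say what the numbers mark. With values centred on the mean of each number and permuted within it, a choice made after seeing the data, r was 0.617 for Mt1 with Mt2 (permutation p = 0.0175), -0.729 for Mt1 with Slc39a10 (permutation p = 0.00393) and -0.745 for Mt2 with Slc39a10 (permutation p = 0.00498). These libraries also share differences in haemoglobin and acinar content: the acinar share of all FPKM was 2.69% for HS_AOS 1 and 2.32% for HS 1, and haemoglobin was 34.3% in control 1. The part of those differences in the relations was not tested.

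Deviations of each library from its group mean gave the same picture as a description over all 18 libraries. The r of these deviations was 0.925 for Mt1 with Mt2, -0.908 for Mt1 with Slc39a10 and -0.886 for Mt2 with Slc39a10. Between groups the relation did not hold: HS_AOSFMT had the highest mean of Slc39a10, at 7.96 ± 0.85 FPKM, together with the highest means of Mt1 and Mt2. Over all 18 libraries the r of Mt1 with Slc39a10 was accordingly 0.0089.

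**Figure D4:**
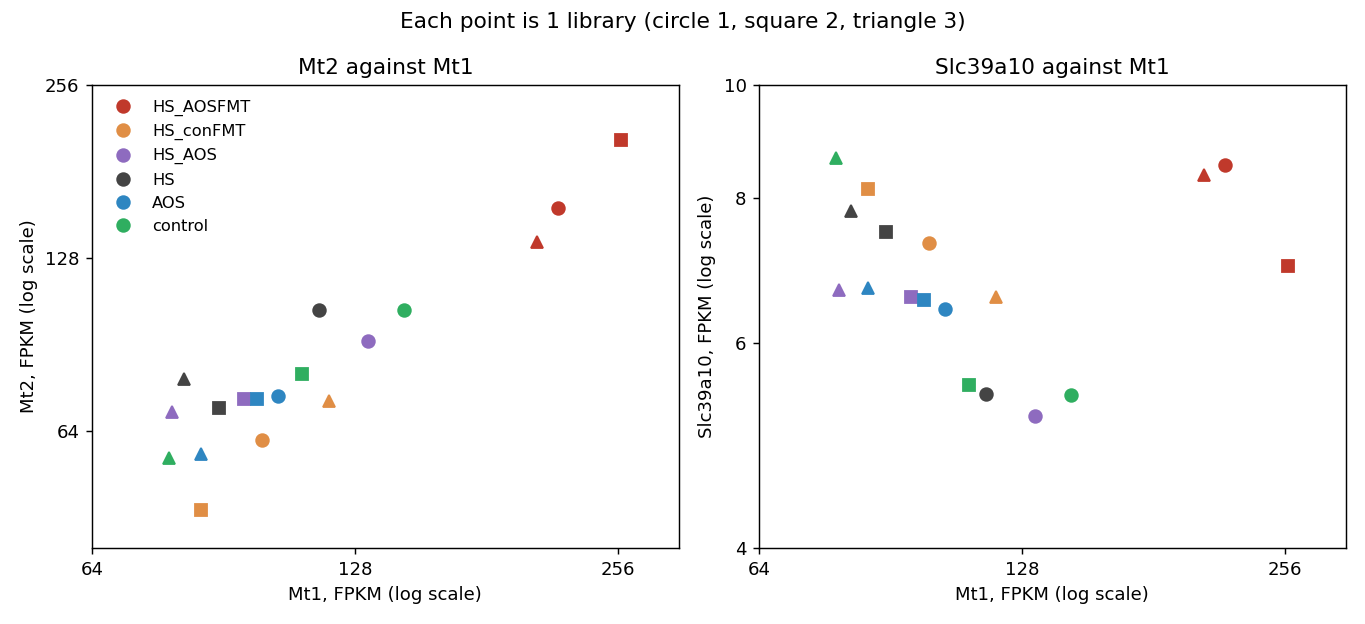
Mt2 (left) and Slc39a10 (right) against Mt1, in FPKM on log axes, each point 1 library coloured by group. Outside HS_AOSFMT, Mt2 is high where Mt1 is high (Pearson r 0.738) and Slc39a10 is low where Mt1 is high (Pearson r -0.824), while the HS_AOSFMT libraries combine high Mt1 with 6.99 to 8.53 FPKM of Slc39a10.

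Genes with a pattern most like each gene of the set were taken by Pearson r on log2(FPKM + 1) over 18 libraries, as a description. For Mt1 these were Vmp1 (r 0.912), Taf13 (0.873), Pold1 (0.858), Gal3st4 (0.857) and Hbs1l (0.852). For Mt2 they were Med7 (0.888), Vmp1 (0.883), Nfil3 (0.860), Hbs1l (0.855) and Dimt1 (0.848). The likeness was lower without HS_AOSFMT: Vmp1, at a mean of 50.0 FPKM in HS_AOSFMT against 31.9 FPKM in HS, had an r of 0.573 with Mt1 over the other 15 libraries. For Slc39a10 the most alike were Calcrl (0.899), Rel (0.886), Trappc5 (0.883), Jak1 (0.881) and Ccr9 (0.870), and Calcrl kept an r of 0.885 without HS_AOSFMT. Slc30a1 had looser partners, led by Cdc27 (0.787).

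The other zinc transporter genes did not show a change of the size seen in the metallothioneins. Of 21 further genes of the ZnT and ZIP families, all were in the table and 16 were tested. Against HS, 0 of 16 were called in HS_AOSFMT, and their changes ran from -0.41 to 0.33 with a median of 0.13, beside a median of 0.10 over all tested genes. The smallest adjusted p belonged to Slc39a3, a ZIP importer, at 7.41 ± 0.54 FPKM in HS_AOSFMT and 5.97 ± 0.49 FPKM in HS (SD, n = 3 each; change 0.27, limma adjusted p = 0.0869). Against HS_conFMT, 0 of 16 were called, with the smallest adjusted p at 0.101 for Slc39a7, the importer that releases zinc from the endoplasmic reticulum; without HS_conFMT 2 it was called (change 0.27, limma adjusted p = 0.0304).

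Against control, 2 of the 16 were called higher in HS_AOSFMT and 0 lower, beside 9.68% and 2.34% of all tested genes. The median change of the 16 was 0.18, beside 0.090 over all genes. Slc39a7 had 59.4 ± 1.16 FPKM in HS_AOSFMT and 48.1 ± 3.07 FPKM in control (change 0.30, SE 0.071, limma adjusted p = 0.0163). Its call was lost without HS_AOSFMT 1 (limma adjusted p = 0.053) or HS_AOSFMT 3 (0.0682), and with these groups fitted alone (0.0987). Slc39a3 had 7.41 ± 0.54 FPKM in HS_AOSFMT and 5.78 ± 0.81 FPKM in control (change 0.32, SE 0.097, limma adjusted p = 0.0461). That call was lost in the fits without control 1, control 2 or any of the 3 HS_AOSFMT libraries (adjusted p between 0.0518 and 0.189) and on rescaling without haemoglobin and acinar genes (0.169), with upper quartile scaling (0.0973), with no filter on low values (0.0569) and with these groups alone (0.173). The count of 2 became 5 without control 3, 1 without control 1, control 2 or HS_AOSFMT 2, and 0 without HS_AOSFMT 1 or HS_AOSFMT 3. It was also 0 with HS 1, HS_AOS 1 and control 1 set aside. Over all tested genes, the number called in either direction went from 1558 to 3376 without control 3. In the other 4 group comparisons and the interaction, 0 of the 16 were called by limma.

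Several zinc genes were at or near 0 in spleen. Slc30a8, the exporter of insulin granules in beta cells, was listed at 0 in all 18 libraries. Mt3, a metallothionein known from brain, was listed at 0 to 0.37 FPKM, and Slc39a5, an importer of pancreas and gut, at 0 to 1.33 FPKM. No entry under the symbol Mt4 was found among the 19326 gene entries, so Mt4 could not be assessed.

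Genes described in mouse as Mtf1 targets outside zinc transport did not follow Mt1 and Mt2. Of 6 tested genes of 7 listed, 0 rose and 1 fell in HS_AOSFMT against HS, against HS_conFMT and against control, and the 1 was Slc40a1 each time. Among all tested genes, 1.15%, 1.04% and 2.34% were called lower in the same comparisons, in that order. Slc40a1 encodes ferroportin, the iron exporter, and had 44.0 ± 4.44 FPKM in HS_AOSFMT, 68.6 ± 1.75 FPKM in HS_conFMT, 67.6 ± 12.3 FPKM in HS and 66.7 ± 12.6 FPKM in control (SD, n = 3 each). Its change was -0.60 (limma adjusted p = 0.0408) against HS, -0.64 (limma adjusted p = 0.0404) against HS_conFMT and -0.58 (limma adjusted p = 0.0389) against control. These calls stood close to the threshold: leaving out HS_AOSFMT 1, 2 or 3 ended each of them, and so did leaving out HS 2 or HS 3, any 1 HS_conFMT library or any 1 control library (adjusted p between 0.0506 and 0.139). They were also lost with no filter on low values (adjusted p between 0.0578 and 0.0611), against HS on rescaling without haemoglobin and acinar genes (0.0550) and against control with these groups alone (0.0856). Csrp1, which encodes a LIM domain protein, had 160 ± 5.94 FPKM in HS_AOSFMT and 136 ± 6.22 FPKM in HS (change 0.24, limma adjusted p = 0.0839).

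Glucocorticoid responsive genes were high in the same group as the metallothioneins, but several were not high in that group alone. Of 10 listed genes, 7 rose in HS_AOSFMT against HS (median change 0.77), 2 rose against HS_conFMT (0.34) and 9 rose against control (1.02), and 0 fell, beside medians of 0.10, 0.062 and 0.090 over all genes. Of all tested genes, 8.08%, 4.81% and 9.68% were called higher in these comparisons, in that order. The 2 called against HS_conFMT were Fkbp5 and Zbtb16. Zbtb16, a zinc finger factor gene, passed the filter on low values only through HS_AOSFMT, where it averaged 1.78 FPKM, so its call carries no weight; without it the counts were 6, 1 and 8 of 9 genes. Fkbp5, which encodes a co-chaperone of the glucocorticoid receptor, had 27.0 ± 4.86 FPKM in HS_AOSFMT, 12.5 ± 2.16 FPKM in HS_conFMT, 10.4 ± 0.60 FPKM in HS and 9.44 ± 0.57 FPKM in control. In HS_conFMT against HS, 0 of the 10 were called, but all 10 changes were positive, with a median of 0.41 beside 0.032 over all genes. In HS_AOSFMT against HS_conFMT, 8 of the 10 changes were positive. Ddit4 and Dusp1 had the higher mean in HS_conFMT, at 60.6 and 27.7 FPKM against 53.7 and 26.7 FPKM in HS_AOSFMT. Against HS the count of 7 became 2 without HS 1 or HS 3, 1 without HS_AOSFMT 1, 2 without HS_AOSFMT 3 and 4 in the fit that drops the 3 libraries lowest on the first principal component. It was 5 on rescaling without haemoglobin and acinar genes. Against HS_conFMT the count of 2 became 1 without any 1 of the HS_AOSFMT libraries. Against control the count of 9 became 5 without HS_AOSFMT 1 or HS_AOSFMT 3, and 6 without control 1. It was also 6 with HS 1, HS_AOS 1 and control 1 all set aside, and 8 on rescaling without haemoglobin and acinar genes. The fits without an HS_AOSFMT library held 9 of the 10 genes, since Zbtb16 then failed the filter. The list was chosen with earlier results of these libraries known and is not independent evidence of its direction.

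Targets of Nrf2, the oxidative stress factor, showed no rise. Of 6 listed genes, 0 were called in HS_AOSFMT against HS (median change -0.34) and 0 against control (-0.65). Against control, Srxn1 was called lower with a filter of at least 5 FPKM in 3 libraries. Gsr and Srxn1 were called lower without control 3, where the genes called went from 1558 to 3376. Against HS_conFMT, 0 were called higher and 1 lower, beside 4.81% and 1.04% of all genes. The 1 was Hmox1, which encodes haem oxygenase. It had 171 ± 30.8 FPKM in HS_AOSFMT and 293 ± 53.2 FPKM in HS_conFMT (change -0.77, limma adjusted p = 0.0460). Leaving out any 1 of the HS_AOSFMT or HS_conFMT libraries ended that call (adjusted p between 0.0586 and 0.149), and so did no filter on low values (0.0680), no trend (0.0501) and these groups alone (0.0681).

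**Figure D5:**
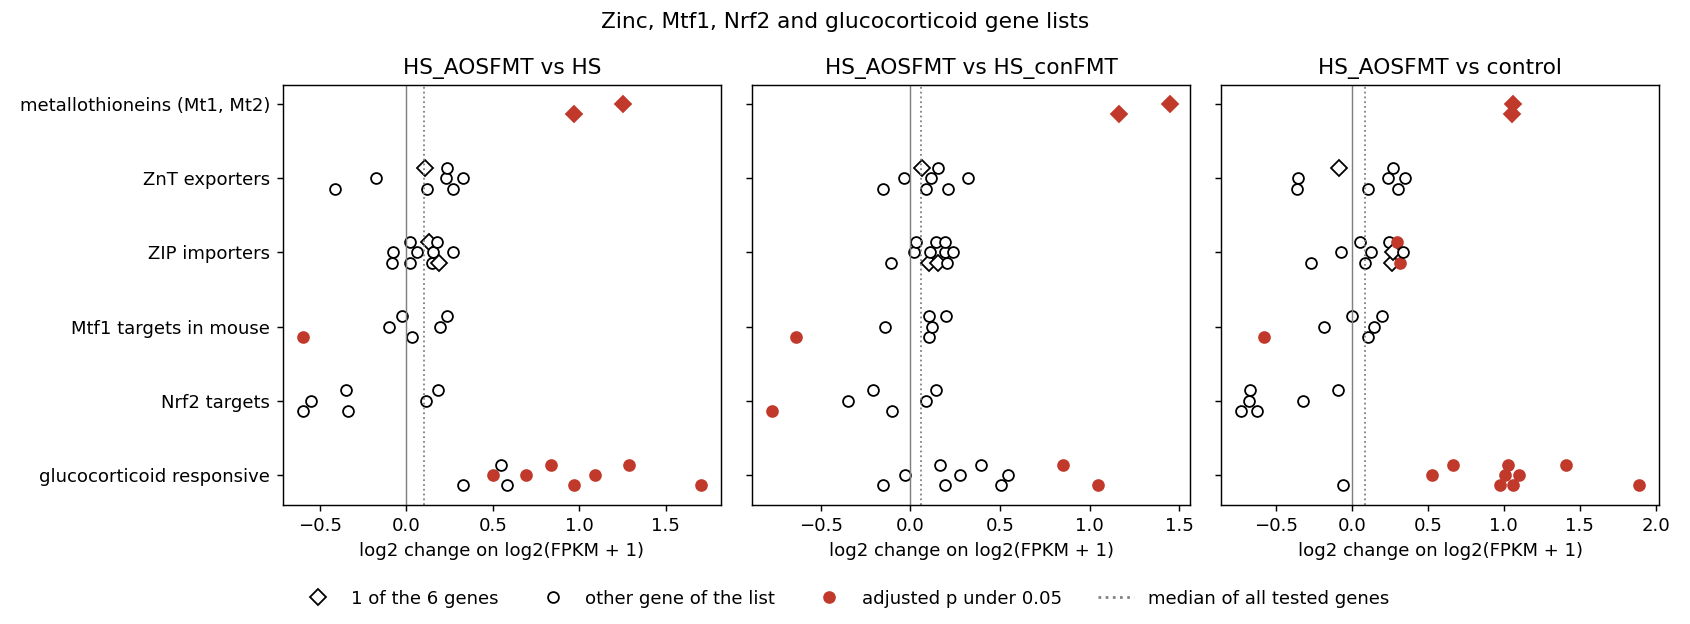
Log2 change on log2(FPKM + 1) on the horizontal axes for the genes of each list in the 3 comparisons with HS_AOSFMT, filled where the limma adjusted p is under 0.05, with a dotted line at the median of all tested genes. Mt1 and Mt2 lie at 0.97 to 1.45, and the tested ZnT and ZIP genes at -0.41 to 0.35. Against HS, HS_conFMT and control, 6, 1 and 8 of 9 glucocorticoid responsive genes were called higher. The shares of all tested genes called higher were 8.08%, 4.81% and 9.68%, in that order. Zbtb16 is drawn as well but left out of these counts, since it passed the filter only through HS_AOSFMT.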

How the data were processed

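RNA was sequenced from 18 spleen libraries. The authors deposited 1 table with a value per gene and library; per the submitters' processing notes the build was mm10 and the aligner Bowtie 0.12.2, while the sources used here name neither gene counter nor annotation. The unit of the deposited values, FPKM, was inferred from the values: totals varied by 6.14% between libraries (coefficient of variation), and totals weighted by transcript length by 1.11%. The table holds no counts, so depth is unknown and no counting error is given; summed FPKM ran from 666441 to 831448. Of 19326 entries, 418 were 0 in all libraries, 26 had symbols turned into dates, and 3 symbols stood on 2 lines.

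Groups came from the treatment labels. All 18 libraries entered 1 limma model (version 3.58.1, R 4.3.3) of log2(FPKM + 1) by group, with robust, trended eBayes; residual degrees of freedom were 12 and prior ones 3.38. The 12969 genes tested had 1 FPKM or more in 3 or more libraries. Tests were two-sided, adjusted by Benjamini-Hochberg within each of 8 comparisons, with a threshold of 0.05. The fit was tested on simulated data. A log2 change on this scale understates that of low genes. Correlations used 100000 permutations.

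The genes, lists and naming rule were chosen with earlier results of these data known. Named are the 6 genes, up to 4 genes per list with the smallest p, and the 5 genes most like a given gene. Outside this rule, Slc30a8, Mt3 and Slc39a5 were named for values near 0, and Ddit4 and Dusp1 for higher means in HS_conFMT. They were chosen after their values were seen. Promoters come from RefSeq (GRCm38.p6; all 6 genes matched) and gene positions from GENCODE M21 (mm10). Replicate numbers paired the libraries by correlation of deviations from the group mean only in HS_AOS against HS (r 0.487, 0.287 and 0.372); the labels do not explain the numbers. Alternatives were other pseudocounts and filters, groups fitted alone, no trend, a replicate block, rescaling, setting aside 3 libraries and leaving out each library.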

Additional observations from a re-analysis of the deposited data

Results flagged for a closer look

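Slc30a1, the gene of the exporter ZnT1, was marked because the AOS effect had the opposite direction with and without diet and STZ in every library. It had 7.12, 7.58 and 8.43 FPKM in HS_AOS, all above HS at 6.62, 5.70 and 6.34 FPKM, and 6.36, 6.88 and 6.79 FPKM in AOS, all below control at 6.92, 7.44 and 7.36 FPKM. Of all tested genes, 8.22% had all 3 HS_AOS libraries above HS, and 4.79% had all 3 AOS libraries below control. The share of genes with both was not counted. For Slc30a1 the difference between the effects was 0.372 on log2(FPKM + 1) (SE 0.11) and did not pass the threshold (limma adjusted p = 0.547).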

How the results depend on the processing

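The number of genes called moved more than the metallothioneins did. In HS_AOSFMT against HS it was 1197, and it came to 403 without HS 1, HS_AOS 1 and control 1, 363 on rescaling without haemoglobin and acinar genes, 753 with upper quartile scaling, and 200 (without HS_AOSFMT 1) to 751 (without HS 2) with 1 library left out. Against HS_conFMT it was 759, and 191 with these groups alone, 483 rescaled and 198 (without HS_conFMT 1) to 1200 (without HS_conFMT 2) with 1 library left out. Against control it was 1558, and 203 with these groups alone, 434 without the 3 libraries, 1032 rescaled and 445 (without HS_AOSFMT 3) to 3376 (without control 3) with 1 library left out. In HS_conFMT against HS the count of 1 became 0 with the groups alone, without the 3 libraries, with the replicate block and in every fit with 1 library left out (0 to 0), 2 with no filter and 4 with no trend. In HS_AOS against HS the count of 0 became 1 with the groups alone, 5 without the 3 libraries and 0 to 3 with 1 library left out. In HS against control the count of 2 became 0 with the groups alone, 4 without the 3 libraries, 8 with no filter, 1 and 5 with pseudocounts of 0.1 and 0.5, and 3 to 9 with 1 library left out. In AOS against control the count of 1 became 7 with no filter, 2 with no trend, 2 with either pseudocount, and 1 to 45 (without control 3) with 1 library left out. For the interaction, 1 became 0 with a pseudocount of 0.1 and ran from 1 to 4 with 1 library left out.

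With 1 library left out, Mt1 stayed higher in HS_AOSFMT by 1.14 to 1.40 against HS, 1.04 to 1.29 against HS_conFMT and 0.83 to 1.27 against control, and Mt2 by 0.81 to 1.13, 1.28 to 1.59 and 0.83 to 1.25. In the other comparisons small changes turned sign with 1 library left out. Mt1 ran from -0.035 to 0.24 in HS_conFMT against HS, -0.12 to 0.25 in HS_AOS against HS, -0.42 to 0.020 in HS against control and -0.40 to 0.038 in AOS against control, where it was also 0.038 without the 3 libraries. Mt2 ran from -0.23 to 0.055 in HS_AOS against HS and -0.14 to 0.28 in HS against control. Mtf1 in HS_AOSFMT against HS_conFMT ran from -0.017 to 0.017.

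The replicate block, which is supported by the libraries only in HS_AOS against HS, gave 0 calls there and an adjusted p of 0.623 for Slc30a1; it gave 1453, 909 and 1941 calls for HS_AOSFMT against HS, HS_conFMT and control, and changed the call of none of the 6 genes. It ended the call of Hmox1 against HS_conFMT (limma adjusted p = 0.0599) and gave a fall of Srxn1 against control. The cause of these movements was not tested. Zbtb16 had no fit without an HS_AOSFMT library, since it then failed the filter on low values. Depth is unknown, so values near 0 FPKM carry no counting error here.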
